A study of Mus musculus with 40 samples.

Results

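The anterior Hox genes examined here were Hoxa2, Hoxa3, Hoxb1, Hoxb2, Hoxb3, Hoxd1 and Hoxd3, which belong to paralog groups 1 to 3. They were taken by symbol from the count table of every library and are 7 of the 26411 genes listed there. They were chosen by name, but earlier results of these data were known when the choice was made. RNA was sequenced from whole mouse embryos at E9.5 and from LSK cells (lineage-negative, SCA-1-positive, c-KIT-positive cells, the fraction that contains the blood stem and progenitor cells) sorted from fetal liver at E14.5, with 4 libraries per genotype and 40 libraries in all.

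KAT6A and KAT6B are paralogous histone acetyltransferases. The embryos were wild type at both genes (WT), homozygous for a Kat6a null allele that lacks several exons (cfd/cfd in the labels, Kat6a-/- here), homozygous for a Kat6b null allele that also lacks exons (dec/dec, Kat6b-/-), homozygous for the G656E substitution in KAT6A (Kat6aE/E), homozygous for the G577E substitution in KAT6B (Kat6bE/E), or homozygous for both substitutions (Kat6aE/E;Kat6bE/E, the double point mutant). The substitutions replace a glycine of the acetyl-CoA binding site and remove acetyltransferase activity while the protein stays encoded. LSK cells were taken from WT, Kat6aE/E, Kat6bE/E and double point mutant fetuses, and the null genotypes were not analysed here in LSK cells. All alleles were germline and were kept on C57BL/6 or C57BL/6J backgrounds, so every cell of an embryo carried them. The E9.5 embryos were male. They came from 17 litters, and only 3 litters gave both a WT and a mutant library of those compared here.

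Hox genes lie in clusters, and genes near one end of a cluster are expressed earlier and further towards the head than those near the other end. Groups 1 to 3 are the most anterior of them: their proteins are homeodomain transcription factors that give the hindbrain segments, the neural crest of the pharyngeal arches and the uppermost vertebrae their identity. Retinoic acid induces these genes, PBX and MEIS proteins bind DNA with their products, and polycomb and trithorax proteins hold them off or on. In adult and fetal blood a separate set of Hox genes, mainly of the A and B clusters, is expressed in stem and progenitor cells.

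In GRCm39, the assembly of the count files, Hoxa2 lies at chr6:52138599-52141811 and Hoxa3 at chr6:52146041-52190316, both on the minus strand. Hoxb3 lies at chr11:96214152-96238756, Hoxb2 at chr11:96241351-96244838 and Hoxb1 at chr11:96256578-96259082, all on the plus strand. Hoxd3 lies at chr2:74542271-74578786 and Hoxd1 at chr2:74593324-74595486, also on the plus strand. The library kit does not mark strand, so reads from noncoding genes on the opposite strand cannot be told apart from reads of a member where their exons overlap. In the GENCODE annotation the noncoding gene Hoxb3os covers 51.5% of the exonic bases of Hoxb3 and 29.7% of those of Hoxb2, Hotairm1 covers 374 exonic bases of Hoxa2, and Hoxaas2, Hoxaas3 and 5730596B20Rik cover 7.31%, 4.31% and 4.24% of the exonic bases of Hoxa3. Hoxd3os1 covers 5.07% of those of Hoxd3, and Hoxd4 on the same strand shares 5.67% of them. No such overlap with a named gene was found for Hoxb1 or Hoxd1. These shares hold for the GENCODE models, while the counts were made on RefSeq models. Hoxb3, for example, has 3721 bases in the count files and 5138 exonic bases in GENCODE. The overlap of the counted exons can therefore differ and was not computed.

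Promoter sequences of 5 of the 7 members were found in the RefSeq table for GRCm38.p6 (Hoxa2, Hoxa3, Hoxb1, Hoxd1 and Hoxd3). The 250 bases before the annotated start are given for the members whose RNA level passed the test in Kat6a-/- embryos: Hoxa2 and Hoxb1, which were lower, and Hoxd1, which was higher. Capitals mark TGATNNAT, the form of a joint HOX and PBX binding site, on either strand. These coordinates are in GRCm38.p6 and differ from the GRCm39 coordinates of the genes.
Hoxa2, chr6:52164832-52165081, minus strand: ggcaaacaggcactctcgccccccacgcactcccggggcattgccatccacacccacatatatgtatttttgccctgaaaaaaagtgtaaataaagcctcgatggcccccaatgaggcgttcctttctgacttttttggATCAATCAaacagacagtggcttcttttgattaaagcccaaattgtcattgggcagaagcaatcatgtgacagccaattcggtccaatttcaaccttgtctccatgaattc
Hoxb1, chr11:96365508-96365757, plus strand: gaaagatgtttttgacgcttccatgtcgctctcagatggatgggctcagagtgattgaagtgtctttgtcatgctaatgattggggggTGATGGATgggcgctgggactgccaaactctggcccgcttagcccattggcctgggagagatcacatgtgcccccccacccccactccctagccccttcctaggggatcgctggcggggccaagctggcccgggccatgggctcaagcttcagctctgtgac
Hoxd1, chr2:74762730-74762979, plus strand: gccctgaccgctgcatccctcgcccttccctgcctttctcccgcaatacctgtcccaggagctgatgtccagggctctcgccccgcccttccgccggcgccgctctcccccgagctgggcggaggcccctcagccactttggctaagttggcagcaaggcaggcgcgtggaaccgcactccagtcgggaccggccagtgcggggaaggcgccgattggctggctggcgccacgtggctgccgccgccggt
TGATNNAT was found once in the Hoxa2 sequence (as ATCAATCA on the printed strand) and once in the Hoxb1 sequence (as TGATGGAT), and was not found in the windows of Hoxa3, Hoxd1 and Hoxd3. Over all 32841 promoters of the same length in the table, 7.69% held it on either strand. TATAAA was in none of the 5 windows and in 12.4% of all of them. CCAAT, searched likewise on both strands, was found in the windows of Hoxa2, Hoxb1, Hoxd1 and Hoxd3 and in 33.9% of all promoters. The Hoxd1 window held 24 CpG dinucleotides and 71.6% G and C, against 6 and 46.4% for Hoxa2 and 7 and 59.2% for Hoxb1. The Hoxd1 ratio of observed to expected CpG, 0.759, was above that of 77.9% of all promoters, and the ratios of Hoxa2 (0.466) and Hoxb1 (0.32) were above those of 57.2% and 44.8%. A match to these letters describes the sequence and does not show binding.

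Library totals ran from 8401990 to 23339359 counts in embryos and from 12270376 to 59216547 in LSK cells. Each member had 47 or more counts in every embryo library. Counts of Kat6a and Kat6b did not check the null labels, since they cover whole genes and single exons were not counted here. Kat6a was 176 ± 8.79 CPM (counts scaled to a common library size, here after TMM normalisation, with SD, n = 4) in WT and 166 ± 4.66 CPM in Kat6a-/- embryos. Kat6b was 40.5 ± 2.51 CPM in WT and 54.5 ± 2.75 CPM in Kat6b-/- embryos. This rise of Kat6b passed the test described below (log2 fold change 0.41, SE 0.065, false discovery rate 0.00441 by voomLmFit). Its cause was not tested. Among the LSK libraries, 4 stood apart with 12600 to 13683 genes detected against 16082 to 17647 in the other 12: 3 of the 4 double point mutant libraries and replicate 2 of Kat6aE/E. Of the embryo libraries, double point mutant replicate 2 had the highest leverage in the model (0.88, against 0.263 to 0.595 in the others). In LSK cells the leverage was 0.977 to 0.998 in the 4 libraries with few genes detected and 0.918 in double point mutant replicate 1, against 0.251 to 0.36 in the other 11, so the double point mutant values rest on libraries that the model fits almost exactly. Whole embryos mix many cell types, so a lower value can mean fewer cells that express a gene or less of its RNA per cell, and these cannot be told apart here.

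In WT embryos all 7 members were expressed, and their levels differed several-fold. On the scale of CPM per kilobase of the gene length in the count files, which allows genes to be compared, the means were 22.6 ± 1.31 for Hoxb2, 21.7 ± 1.10 for Hoxb3, 15.0 ± 2.24 for Hoxd3, 13.7 ± 1.46 for Hoxa2, 9.57 ± 0.891 for Hoxb1, 8.96 ± 0.515 for Hoxa3 and 3.13 ± 1.25 for Hoxd1 (SD, n = 4). The ranges of neighbours overlapped for Hoxb2 and Hoxb3, for Hoxd3 and Hoxa2, and for Hoxb1 and Hoxa3. They did not overlap between Hoxb3 and Hoxd3, between Hoxa2 and Hoxb1, or between Hoxa3 and Hoxd1. Together the members held 25.9% to 33.6% of the counts of all 39 Hox genes in WT embryos, 20.3% to 24.9% in Kat6a-/- embryos and 22.4% to 26.2% in Kat6b-/- embryos. The share was 24.8% to 31.9% in Kat6aE/E, 21.5% to 33.7% in Kat6bE/E and 22.5% to 27% in double point mutant embryos. The summed CPM of the members was 219 to 250 in WT, 158 to 178 in Kat6a-/- and 219 to 251 in Kat6b-/- embryos. In Kat6b-/- embryos the share was thus not lower through lower member sums.

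In Kat6a-/- embryos Hoxa2 and Hoxb1 were lower than in WT and Hoxd1 was higher, with 3 of the 7 members called at a false discovery rate (FDR) under 0.05, where 2.64% of the 14183 genes tested were called. The fit was voomLmFit of edgeR over all 24 embryo libraries, with 4 surrogate variables and a random effect for the litter, and FDR values here are Benjamini-Hochberg adjusted over all genes tested. In 6 of 7 members every Kat6a-/- library lay below every WT library, where 11.9% of all genes tested had groups that did not overlap in either direction. The median log2 fold change of the members was -0.42, against -0.0025 over all genes tested.

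**Figure D1:**
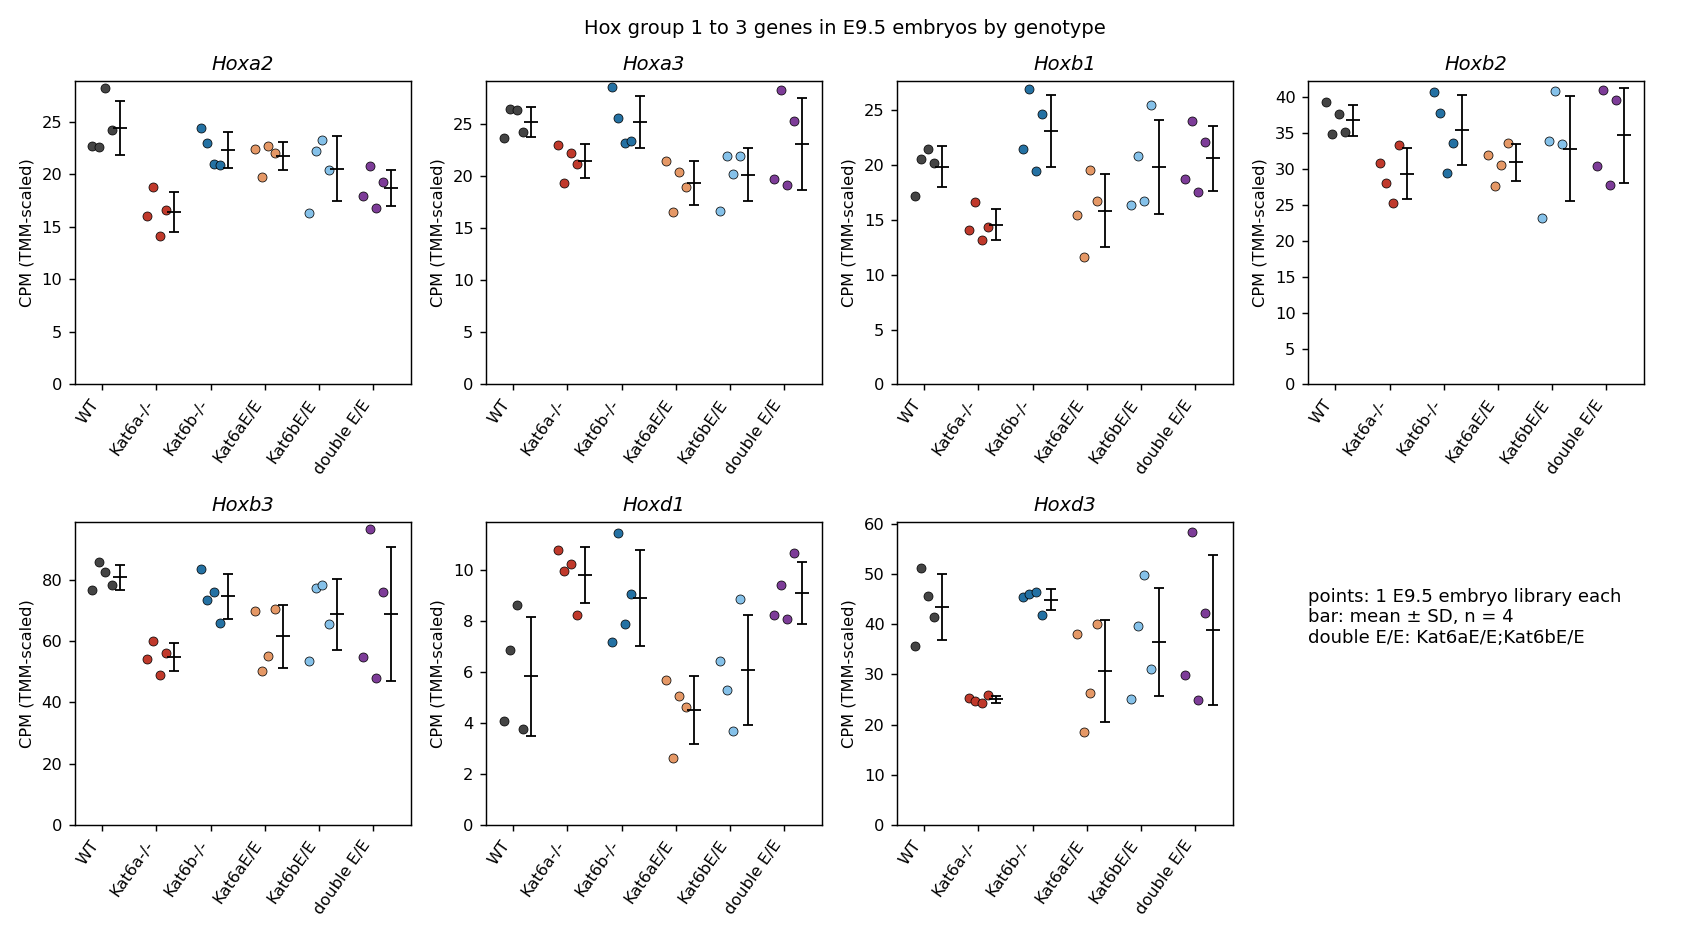
Normalised level (TMM-scaled CPM, linear axis from 0) of the 7 members in each of the 24 E9.5 libraries, by genotype; points are libraries and bars the mean ± SD of 4. The Kat6a-/- points lie below all WT points for every member but Hoxd1, and the double point mutant points of Hoxb3 run from 48.1 to 96.4 CPM.

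Hoxa2, which gives the second pharyngeal arch its identity, had 22.7, 22.6, 28.2 and 24.2 CPM in the 4 WT embryos and 16.1, 18.8, 14.2 and 16.6 CPM in the 4 Kat6a-/- embryos. The groups did not overlap. The fitted log2 fold change was -0.50 (SE 0.10, 95% confidence interval -0.71 to -0.29, FDR = 0.00952 by voomLmFit). It missed the threshold when WT replicate 3, the highest WT library for this gene, was left out (log2 fold change -0.42, FDR = 0.0587).

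Hoxb1, which marks and specifies the fourth hindbrain segment, had 17.2, 20.6, 21.5 and 20.2 CPM in WT and 14.1, 16.6, 13.2 and 14.4 CPM in Kat6a-/- embryos. All Kat6a-/- libraries were again the lower ones, although the highest of them came within 1 CPM of the lowest WT library. The log2 fold change was -0.43 (SE 0.12, interval -0.67 to -0.19, FDR = 0.044 by voomLmFit). This call stood close to the threshold: it was lost when any of the 4 WT libraries or Kat6a-/- replicate 1, 3 or 4 was left out, with log2 fold changes of -0.37 to -0.49 and FDR of 0.0534 to 0.154.

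Hoxd1, the other group 1 member here, moved the opposite way. It had 4.07, 6.86, 8.63 and 3.75 CPM in WT and 10.8, 9.96, 10.2 and 8.24 CPM in Kat6a-/- embryos, so that 3 of the 4 Kat6a-/- libraries lay above every WT library and the lowest lay within the WT range. The log2 fold change was 0.67 (SE 0.17, interval 0.32 to 1.03, FDR = 0.0336 by voomLmFit). It was not called when any WT library or Kat6a-/- replicate 2 was left out (0.52 to 0.89, FDR = 0.0601 to 0.271). Within each library the WT embryos had 9.07 to 19 Hoxd1 counts per 100 Hoxd3 counts and the Kat6a-/- embryos 31.9 to 42.5. Hoxd3 had the lowest fitted value of the members in this comparison (-0.57) and Hoxd1 the highest. The ratio therefore combines both differences and is no separate support for that of Hoxd1.

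The group 3 genes and Hoxb2 lay lower in Kat6a-/- embryos without passing the FDR threshold. Hoxb3, a gene of the caudal hindbrain, had 76.6, 85.7, 82.5 and 78.2 CPM in WT and 54.2, 60.2, 49 and 56 CPM in Kat6a-/- embryos (log2 fold change -0.42, SE 0.11, unadjusted p = 0.00166, FDR = 0.055 by voomLmFit). The 2 groups lay far apart relative to their spread, and this gene just missed the threshold. It was called in 6 of 18 alternative settings, among them DESeq2 (FDR = 0.00381) and the fit without Kat6a-/- replicate 2 (-0.49, FDR = 0.0327). The highest FDR over these settings was 0.168.

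Hoxd3, which takes part in forming the first cervical vertebra, had 35.7, 51.1, 45.5 and 41.4 CPM in WT and 25.3, 24.7, 24.2 and 25.8 CPM in Kat6a-/- embryos. The mutant libraries were nearly equal while the WT libraries were spread out. The log2 fold change was -0.57 (SE 0.19, interval -0.98 to -0.16, unadjusted p = 0.00951, FDR = 0.132 by voomLmFit). Hoxa3, needed for the thymus and parathyroid glands, had 23.7, 26.5, 26.4 and 24.2 CPM in WT and 23, 19.3, 22.3 and 21.2 CPM in Kat6a-/- embryos (log2 fold change -0.23, SE 0.08, unadjusted p = 0.00821, FDR = 0.123). The difference of Hoxa3 was small next to those of Hoxa2 and Hoxb3. Hoxb2, a hindbrain gene induced by the segment factor EGR2, had 39.4, 34.9, 37.7 and 35.2 CPM in WT and 30.8, 28.1, 25.3 and 33.4 CPM in Kat6a-/- embryos, and its log2 fold change of -0.22 (interval -0.47 to 0.03) had FDR = 0.372. One litter held both genotypes (WT replicate 1 and Kat6a-/- replicate 2): within it the ratio of Kat6a-/- to WT CPM was between 0.692 and 0.965 for 6 members and 2.45 for Hoxd1.

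**Figure D2:**
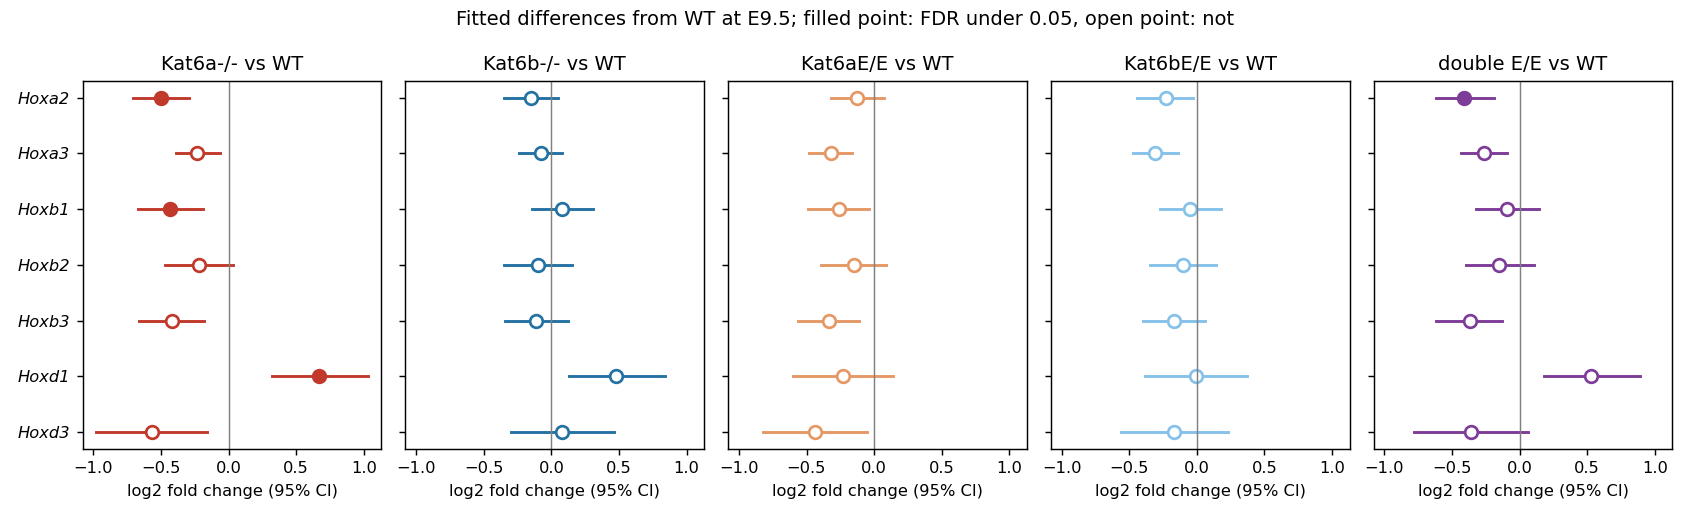
Fitted log2 fold change of each member from WT in the 5 mutant genotypes at E9.5, with 95% confidence intervals; filled points had FDR under 0.05. Filled points stand only at Hoxa2, Hoxb1 and Hoxd1 in Kat6a-/- embryos and at Hoxa2 in the double point mutant.

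In Kat6b-/- embryos Hoxd1 had the largest fitted difference from WT. No member was called by voomLmFit in this comparison, where 0.508% of all genes tested were called. Of the 7 members 1 had an unadjusted p under 0.05, as did 12.1% of all genes tested. Neither edgeR's quasi-likelihood test nor DESeq2 called any member. DESeq2 gave no FDR for Hoxd1 here (log2 fold change 0.44, SE 0.19), so it could not have called that gene. No member had groups that did not overlap, where 6.61% of all genes had. Hoxd1 had 7.17, 11.4, 7.88 and 9.04 CPM in Kat6b-/- embryos (log2 fold change 0.48, SE 0.17, interval 0.13 to 0.84, unadjusted p = 0.0098, FDR = 0.221 by voomLmFit). Of these libraries 2 lay above all WT libraries and 2 within their range. The other 6 members had log2 fold changes of -0.15 to 0.08, and Hoxa2 had 24.4, 23, 20.9 and 20.9 CPM. Hoxb1 had 21.5, 26.9, 19.5 and 24.6 CPM, with 3 of 4 libraries above every WT library. In the litter that held WT replicate 3 and Kat6b-/- replicate 2, 3 of 7 members were lower in the mutant.

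In Kat6aE/E embryos all 7 members had negative fitted values, and none was called by voomLmFit (background 0.275% of genes), by edgeR's quasi-likelihood test or by DESeq2. An unadjusted p under 0.05 was found for 4 of 7 members, against 10% of all genes tested. These were Hoxa3 (log2 fold change -0.32, SE 0.078), Hoxb3 (-0.33, SE 0.11), Hoxb1 (-0.26, SE 0.11) and Hoxd3 (-0.44, SE 0.18). Their FDR was 0.0774, 0.274, 0.401 and 0.428. Groups did not overlap for 3 of 7 members (Hoxa3, Hoxb2 and Hoxb3), where 4.94% of all genes had groups apart. Hoxa3 had 21.4, 16.6, 20.4 and 19 CPM, all below WT. It passed the threshold in 2 of 18 alternative settings, among them the fit without Kat6aE/E replicate 1 (-0.36, FDR = 0.0432). The highest FDR over these settings was 0.336.

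Hoxa2 and Hoxd1, both called in Kat6a-/- embryos, had intervals across 0 in Kat6aE/E embryos. Hoxa2 had 22.5, 19.7, 22.7 and 22 CPM (log2 fold change -0.13, interval -0.32 to 0.07). Hoxd1 had 5.7, 2.63, 5.06 and 4.63 CPM (-0.23, interval -0.60 to 0.14). Replicate 2 was the lowest Kat6aE/E library for all 7 members. In the litter that held WT replicate 2 and Kat6aE/E replicate 1, all 7 members were lower in the mutant, with ratios of 0.743 to 0.992.

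The direct comparison of Kat6aE/E with Kat6a-/- embryos bears on whether the point mutant and the null differ. Here 1 of 7 members was called, where 1.6% of genes tested were: Hoxd1 was lower in Kat6aE/E (log2 fold change -0.90, SE 0.18, interval -1.27 to -0.53, FDR = 0.00952 by voomLmFit), and no Kat6aE/E library reached the lowest Kat6a-/- library. Groups lay apart for 2 of 7 members, Hoxd1 and Hoxa2, against 8.35% of all genes. Leaving out Kat6aE/E replicate 2, the library with the lowest Hoxd1, ended this call (-0.74, FDR = 0.099). Hoxa2 was higher in every Kat6aE/E library than in every Kat6a-/- library (log2 fold change 0.37, SE 0.11, unadjusted p = 0.00174), at FDR = 0.0714. It was called in 6 of 18 alternative settings, among them DESeq2 (FDR = 0.0406) and the fit without Kat6a-/- replicate 2 (0.49, FDR = 0.0231). The highest FDR over these settings was 0.167. The intervals of the other members ran across 0, among them Hoxb3 (-0.16 to 0.34) and Hoxd3 (-0.31 to 0.57).

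In Kat6bE/E embryos no gene of the 14183 tested was called (0%), and 7 of 7 members had fitted values below 0, from -0.31 to -0.01. Unadjusted p was under 0.05 for 2 of 7 members, against 4.41% of all genes tested. These were Hoxa3 (-0.31, SE 0.081, interval -0.47 to -0.14, FDR = 0.998 by voomLmFit) and Hoxa2 (-0.23, SE 0.10). The quasi-likelihood test and DESeq2 called no member. By unadjusted p, Hoxa3 stood at rank 5 of all genes tested in this comparison. Its 4 Kat6bE/E libraries had 16.6, 21.9, 20.2 and 22 CPM, all below the lowest WT value of 23.7 CPM, and it was the only member with groups apart (2.31% of all genes). Against Kat6b-/- embryos, no member was called (0.0353% of genes), and neither other test called one. An unadjusted p under 0.05 was found for 2 of 7 members, against 8.83% of all genes tested. These were Hoxd1 (log2 fold change -0.49, SE 0.17, FDR = 0.404) and Hoxa3 (-0.22, SE 0.083, FDR = 0.439), both lower in the point mutant. Hoxa3 was the 1 member with groups apart, against 3.5% of all genes.

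In the double point mutant Hoxa2 was lower than in WT, and Hoxd1 had a positive fitted value without passing the FDR threshold. Of 7 members 1 was called, Hoxa2, where 2.91% of genes tested were called. Hoxa2 had 18, 20.8, 16.8 and 19.3 CPM, all below WT (log2 fold change -0.41, SE 0.10, interval -0.62 to -0.19, FDR = 0.0318 by voomLmFit); it was the 1 member with groups apart, against 7.31% of all genes. The call was lost when WT replicate 2 or 3 or double point mutant replicate 2 or 3 was left out (-0.33 to -0.43, FDR = 0.0618 to 0.135). Hoxd1 had 8.24, 9.42, 8.07 and 10.7 CPM (log2 fold change 0.53, SE 0.17, unadjusted p = 0.00442, FDR = 0.0852), with 2 libraries above the highest WT library and 2 below it.

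The other members were widely spread among the double point mutant embryos. Hoxb3 had 54.7, 96.4, 48.1 and 76.1 CPM, and Hoxd3 had 30, 58.4, 24.9 and 42.1 CPM. Replicate 2 was the highest library of the whole embryo set for both genes, and replicate 3 the lowest of its group for all members. Fitted log2 fold changes, which the surrogate variables adjust and which need not equal the ratio of the CPM means, were -0.37 for Hoxb3 (SE 0.12, FDR = 0.092) and -0.36 for Hoxd3 (SE 0.20). Hoxa3 had 19.8, 28.3, 19.2 and 25.4 CPM and a log2 fold change of -0.26 (SE 0.082, unadjusted p = 0.0044, FDR = 0.0851). Hoxb1 and Hoxb2 had intervals across 0 (-0.32 to 0.14 and -0.40 to 0.11).

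Against Kat6a-/- embryos the double point mutant had no member called (0.00705% of genes tested, a single gene, by voomLmFit), and none by the quasi-likelihood test or DESeq2. In this comparison 1 of 7 members had an unadjusted p under 0.05, as did 10.4% of all genes tested. That member was Hoxb1 (log2 fold change 0.34, SE 0.12, FDR = 0.322), which had 18.8, 24, 17.6 and 22.1 CPM, all above the highest Kat6a-/- library of 16.6 CPM. It was the 1 member with groups apart, against 6.68% of all genes. For Hoxa2 the interval of the difference was -0.14 to 0.32 and for Hoxd1 it was -0.48 to 0.20. The comparisons with WT share the same 4 WT libraries, and so do those with Kat6a-/- its 4.

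Set among the other Hox genes, the members had the lowest median of the Hox groups in Kat6a-/- embryos, and the medians of the posterior groups were above 0. The median log2 fold change in Kat6a-/- embryos was -0.42 over the 7 members, -0.18 over 7 genes of groups 4 and 5, 0.10 over 8 genes of groups 6 to 8 and 0.17 over 15 genes of groups 9 to 13, and no gene of groups 4 to 13 was called. In Kat6b-/- embryos the medians were -0.08, 0.17, 0.29 and 0.53, and Hoxc9 was called (0.53, SE 0.12, FDR = 0.0461 by voomLmFit, called in 6 of 18 alternative settings). In the double point mutant they were -0.26, -0.13, 0.02 and 0.46, and Hoxb5 was called, as lower (-0.39, SE 0.097, FDR = 0.0298). In Kat6aE/E embryos all 4 medians were below 0, at -0.26, -0.21, -0.23 and -0.44. In Kat6bE/E embryos they were -0.17, -0.05, 0 and -0.21. Hoxd1, in group 1, did not follow the other anterior genes: its fitted values resembled those of groups 9 to 13 in sign in Kat6a-/-, Kat6b-/- and double point mutant embryos.

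**Figure D3:**
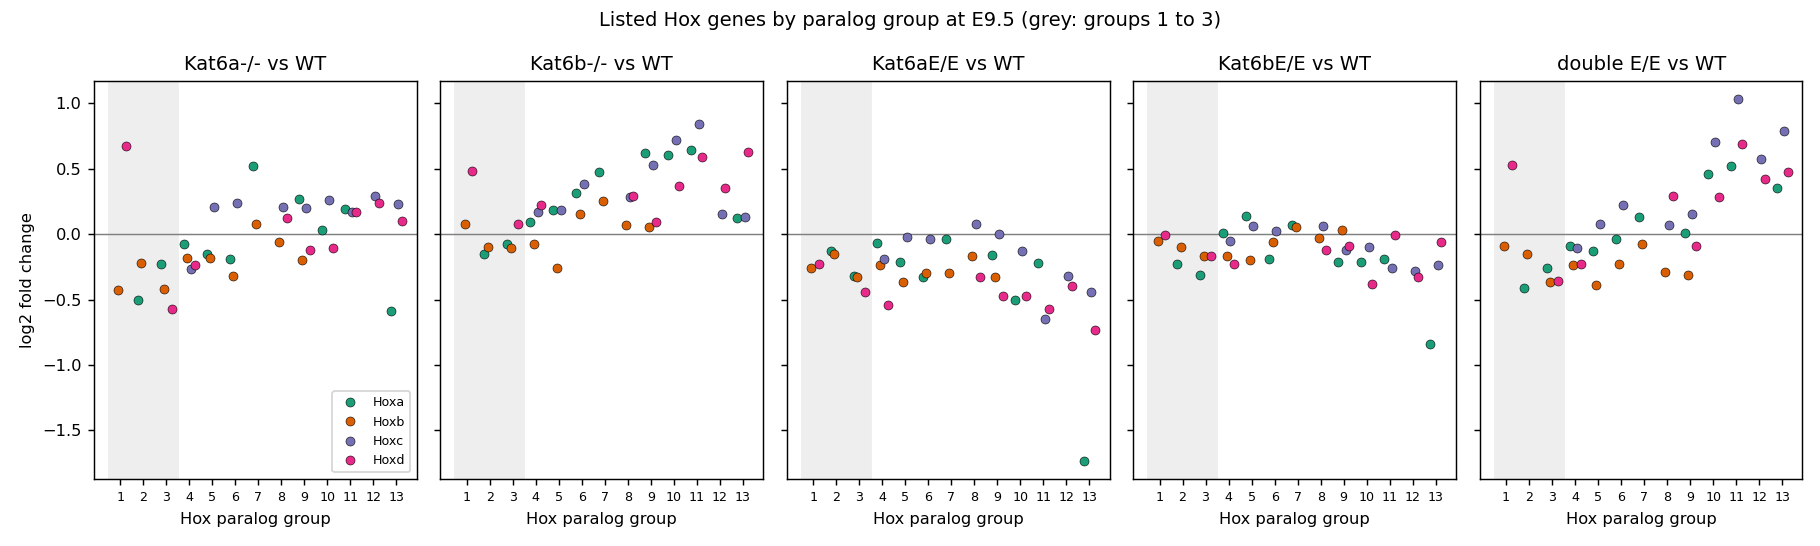
Fitted log2 fold change from WT at E9.5 of the members and of the listed genes of groups 4 to 13, by paralog group (horizontal axis) and cluster (colour), with 1 panel per mutant genotype; the grey band marks groups 1 to 3. In the Kat6a-/-, Kat6b-/- and double point mutant panels Hoxd1 is the highest point of the grey band, at 0.67, 0.48 and 0.53.

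The genes whose level followed each member most closely over the 24 embryo libraries, outside the Hox clusters, differed between Hoxd1 and the rest. For Hoxd1 they were Tbx6 (Pearson r = 0.90), Naaa (0.88) and Msgn1 (0.86), of which Tbx6 and Msgn1 encode transcription factors of the presomitic mesoderm. For Hoxb3 they included Ncapd2 and Ddx42 (0.88 each), and for Hoxd3 Pole and Eif4g3 (0.87 and 0.85). For Hoxa3 they were Zfp503, Hs3st3b1 and Fzd7 (0.83, 0.77 and 0.77), and for Hoxb2 Zfp503, Fzd7 and Sart1 (0.85, 0.83 and 0.79). For Hoxa2 they were Cdc42bpb, Kctd17 and Pald1 (0.83, 0.82 and 0.80), and for Hoxb1 Ankrd27, Sall4 and Sall1 (0.81, 0.80 and 0.79). These are the highest values over all tested genes outside the clusters and are given as a description, since the libraries share genotypes, litters and the scaling. Among the members themselves the highest of the 21 pairs was Hoxb3 with Hoxd3 (r = 0.93, rho = 0.88), and the lowest was Hoxa2 with Hoxd1 (r = -0.36, rho = -0.42). After each library was centred on its genotype mean these were 0.91 and 0.11.

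Markers of the tail bud moved with Hoxd1. The summed level of T, Wnt3a, Tbx6, Fgf8 and Msgn1, genes of the tail bud and presomitic mesoderm, was 27.2 to 50.7 CPM in WT, 52.9 to 86.9 CPM in Kat6a-/-, 51.2 to 79.3 CPM in Kat6b-/- and 55 to 75.9 CPM in double point mutant embryos, and 27.7 to 56.6 CPM in Kat6aE/E and 29.1 to 55.8 CPM in Kat6bE/E embryos. In Kat6a-/-, Kat6b-/- and double point mutant embryos all sums lay above those of the WT libraries. In Kat6b-/- embryos the margin was small (51.2 against 50.7 CPM). Hoxd1 had positive fitted values in the same 3 genotypes but was called only in Kat6a-/- embryos (FDR = 0.0336 by voomLmFit). Its FDR was 0.221 in Kat6b-/- and 0.0852 in double point mutant embryos. None of the 5 genes was called in any of these comparisons, and in Kat6a-/- embryos their median log2 fold change was 0.51. Across the 24 libraries Hoxd1 and the sum had r = 0.88 and rho = 0.81 on the log2 scale, and r = 0.84 without the 2 libraries farthest from the median sum. Within genotypes, each centred on its own mean, r was 0.77. The sum contains Tbx6 and Msgn1, which were already among the genes closest to Hoxd1 over these same libraries. Its r is therefore not separate from theirs. The part of the tail bud markers in the Hoxd1 result was not tested.

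**Figure D4:**
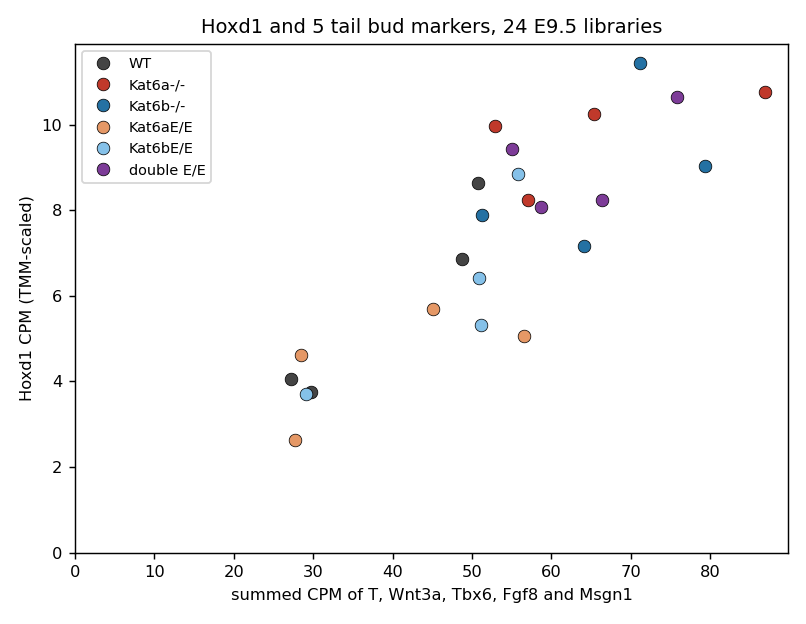
Hoxd1 level against the summed level of 5 tail bud markers (both TMM-scaled CPM, linear axes from 0) in the 24 E9.5 libraries, coloured by genotype. The Kat6a-/-, Kat6b-/- and double point mutant libraries have sums of 51.2 CPM or more and Hoxd1 of 7.17 CPM or more, and 2 WT libraries lie near 4 CPM of Hoxd1.

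Neural tube markers were also lower in Kat6a-/- embryos. Of 5 (Sox1, Sox2, Pax6, Nkx6-1 and Olig2), 3 fell: Sox2 (log2 fold change -0.33, SE 0.069), Pax6 (-0.28, SE 0.074) and Nkx6-1 (-0.80, SE 0.18), with FDR of 0.0151, 0.043 and 0.0282 by voomLmFit. The summed level of the 5 was 338 to 378 CPM in WT and 199 to 300 CPM in Kat6a-/- embryos, and 295 to 356 CPM in the double point mutant, where none was called. In Kat6b-/-, Kat6aE/E and Kat6bE/E embryos the sums were 236 to 341, 284 to 387 and 294 to 381 CPM. There too all 5 markers had negative fitted values against WT, and none was called. Of the 7 members, 3 had positive fitted values in Kat6b-/- embryos, with a median of -0.08. Nkx6-1 was also higher in Kat6aE/E than in Kat6a-/- embryos (0.78, SE 0.19, FDR = 0.0448). Of 4 endoderm markers, Foxa2, which is also expressed in the floor plate, fell by 1.03 on the log2 scale (SE 0.21, FDR = 0.0114) and Epcam rose by 0.43 (SE 0.10, FDR = 0.0319) in Kat6a-/- embryos. None of the 4 neural crest, 4 paraxial mesoderm, 4 heart or 4 blood markers was called in Kat6a-/- embryos, and of these the heart gene Tnnt2 was called in the double point mutant (0.36, SE 0.091, FDR = 0.0415). The part of the neural tube markers in the lower levels of Hoxa2 and Hoxb1 was not tested.

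Few genes that act with or upstream of the anterior Hox genes were called. Of 9 genes for the PBX, MEIS and PKNOX cofactors and of 15 for retinoic acid signalling, CDX proteins and hindbrain segment factors, none was called in Kat6a-/- embryos (medians -0.04 and 0.03). In the double point mutant 1 of the 15 was called, the retinoid receptor gene Rxra (-0.17, SE 0.043, FDR = 0.0295). Of 18 genes for chromatin regulators of the Hox clusters, Bmi1, which encodes a polycomb subunit, was the 1 called, higher in Kat6aE/E (0.30, SE 0.058, FDR = 0.0182) and in the double point mutant (0.33, SE 0.06, FDR = 0.00498), and none was called in Kat6a-/- embryos.

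Among the listed genes of the hindbrain and pharyngeal arches that lie downstream of anterior Hox proteins, Six2, a gene held in check by HOXA2 in the second arch, fell by 0.60 on the log2 scale in Kat6a-/- embryos (SE 0.099, FDR = 0.00183 by voomLmFit). No gene of this list was called in Kat6b-/-, Kat6aE/E, Kat6bE/E or double point mutant embryos against WT.

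The noncoding genes between and across the members were outside the tested set, which held protein-coding genes only. Hoxaas2, which overlaps exons of Hoxa3 on the opposite strand, had 9.4 ± 1.48 CPM in WT and 5.0 ± 0.836 CPM in Kat6a-/- embryos, with ranges of 7.61 to 10.8 and 4.25 to 6.18 CPM. Haglr, between Hoxd1 and Hoxd3, had 9.88 ± 1.40 and 7.21 ± 0.572 CPM, and Hoxb3os had 3.98 ± 0.944 and 2.49 ± 0.538 CPM (SD, n = 4). Hoxaas3, which crosses Hoxa3 on the opposite strand, was the one of these with higher values in Kat6a-/- embryos, 4.28 ± 1.31 against 2.23 ± 1.16 CPM. These are levels without a test.

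In LSK cells 4 of the 7 members were detected. Hoxb1, Hoxd1 and Hoxd3 had 0 counts in all 16 libraries, where 3 counts would be 0.0507 to 0.244 CPM depending on the library, and such a level is the most that a count of 0 allows in each. Hoxa2, Hoxa3, Hoxb2 and Hoxb3 passed the filter on low counts and were tested. The 7 LSK markers were all present, with a summed level of 929 to 1910 CPM in LSK libraries against 134 to 178 CPM in whole embryos. Unsorted fetal liver was not among the samples, so this contrast does not measure how pure the sort was. The median sum was 1750 CPM in WT, 1730 CPM in Kat6aE/E, 1200 CPM in Kat6bE/E and 1030 CPM in the double point mutant. Markers of mature blood lineages were also present, at 142 to 369 CPM in WT and 112 to 375 CPM in Kat6aE/E. They were at 258 to 445 CPM in Kat6bE/E and 164 to 518 CPM in the double point mutant. Hepatocyte markers were present at 53.2 to 160 CPM in WT. The part of these markers in the LSK levels was not tested.

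Per kilobase, Hoxa3 had the highest WT mean of the members in LSK cells (2.44 ± 0.634 CPM per kilobase, against 0.735 ± 0.177 for Hoxb3, 0.623 ± 0.0911 for Hoxa2 and 0.313 ± 0.213 for Hoxb2; SD, n = 4). Hoxa3 had 6.79, 8.21, 8.12 and 4.38 CPM in WT, 5.43, 3.41, 6.3 and 5.33 CPM in Kat6aE/E, 6.29, 3.09, 3.42 and 7.49 CPM in Kat6bE/E, and 4.91, 4.09, 0.597 and 2.64 CPM in the double point mutant. No member had groups apart in Kat6aE/E, Kat6bE/E or the double point mutant, where 4.1%, 3.92% and 4.53% of genes tested had. Of the Hoxa3 libraries, 3 of 4 in the double point mutant lay below all WT libraries. Hoxb3 had 3.35, 3.07, 2.69 and 1.83 CPM in WT, 3.84, 1.79, 4.45 and 4.56 CPM in Kat6aE/E, 3.41, 1.29, 1.03 and 3.42 CPM in Kat6bE/E, and 4.42, 3.97, 0 and 2.87 CPM in the double point mutant. Hoxb3 was thus higher than in every WT library in 3 of 4 Kat6aE/E libraries, the exception being replicate 2, one of the 4 libraries with few genes detected.

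**Figure D5:**
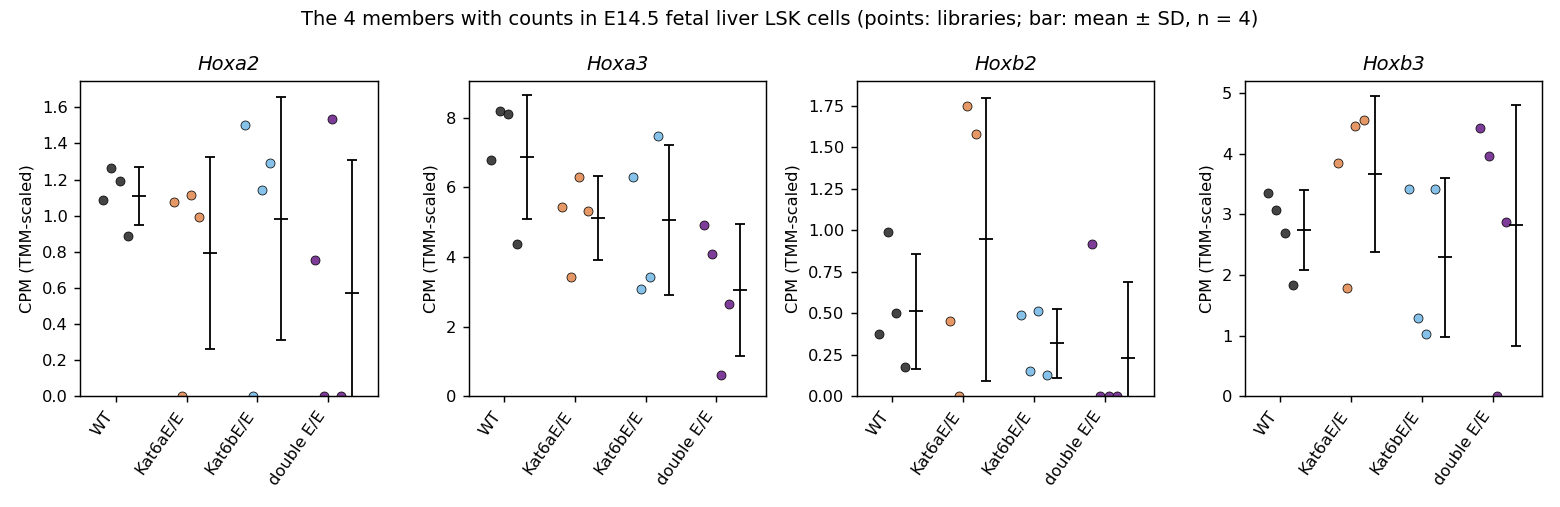
Normalised level (TMM-scaled CPM, linear axis from 0) of the 4 members with counts in LSK cells of the E14.5 fetal liver, by genotype; points are libraries and bars the mean ± SD of 4. Hoxa2 is at 0 in 1 Kat6aE/E, 1 Kat6bE/E and 2 double point mutant libraries, and Hoxb2 is at 0 in 3 double point mutant libraries.

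Hoxa2 and Hoxb2 had the lowest levels of the 4 members in LSK cells, and each was at 0 counts in 4 mutant libraries. Hoxa2 had 0.89 to 1.26 CPM in the WT libraries (26 to 51 counts), and Hoxb2 had 0.175 to 0.992 CPM in WT (9 to 22 counts), where 3 counts correspond to 0.0507 to 0.135 CPM. Of the 8 zeros, 7 fell in the 4 libraries with few genes detected; Hoxa2 in Kat6bE/E replicate 2 was the exception.

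No member was called in LSK cells by voomLmFit, by edgeR's quasi-likelihood test or by DESeq2, in Kat6aE/E (1.36% of the 13071 genes tested called), Kat6bE/E (0%) or the double point mutant (0%). An unadjusted p under 0.05 was found for 1 of the 4 members in Kat6aE/E, Hoxb3 (log2 fold change 0.57, SE 0.20, interval 0.15 to 0.98, FDR = 0.196 by voomLmFit), and for none in the other genotypes. Over all genes tested, 12.5% had such a p in Kat6aE/E, 2.78% in Kat6bE/E and 6.85% in the double point mutant. The fitted value of Hoxb3 was 0.57 also without the 4 libraries with few genes detected (SE 0.26, FDR = 0.399), and no member was called in any genotype without them. The double point mutant then has 1 library, which is assumed to vary like the other groups, and 303, 61 and 96 of 13744 genes were called in Kat6aE/E, Kat6bE/E and the double point mutant. For the double point mutant the values hung on 1 library: without its replicate 1, the only one of its group with the usual number of genes detected, Hoxa3 (-1.45, FDR = 0.0184) and Hoxb3 (-1.59, FDR = 0.0295) were called as lower. The 3 libraries left in that group came from 1 litter and all had few genes detected, and 2170 of 13230 genes were called in that fit, against 0 of 13071 with all libraries. In full, their values were -0.53 (interval -1.18 to 0.12) and 0.39 (-0.24 to 1.01).

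Of the listed genes around the anterior Hox genes, 3 were called in Kat6aE/E LSK cells. Hoxb4, the neighbour of Hoxb3 in its cluster and a gene of blood stem cells, rose by 0.81 on the log2 scale (SE 0.19, FDR = 0.0398 by voomLmFit). The polycomb gene Pcgf2 fell by 0.68 (SE 0.15, FDR = 0.03), and Gata2, also a blood stem cell factor, fell by 0.57 (SE 0.076, FDR = 0.00353). Of 19 alternative settings, Hoxb4 was called in 2, Pcgf2 in 8 and Gata2 in 16, each with the same direction in all 19. The calls over all genes in this comparison hung on the model and on 1 library: 178 genes were called, against 1 without Kat6aE/E replicate 1, 3 with 0 surrogate variables and 33 without the litter effect.

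The effect of a genotype in embryos was then set against its effect in LSK cells for the 4 members measured in both, by an exact permutation test of the genotype labels within each tissue (two-sided, 4900 arrangements, difference in mean log2(CPM + 0.5), 12 tests). None of the 12 differences had an adjusted p under 0.05. The lowest p was that of Hoxb3 in Kat6aE/E, which was -0.40 against WT in embryos and 0.32 in LSK cells, a difference of -0.72 (exact permutation p = 0.0473, adjusted p = 0.568). Without LSK Kat6aE/E replicate 2 this difference was -0.99 (exact permutation p = 0.000816, adjusted p = 0.0098). That library was the 1 of Kat6aE/E with Hoxb3 below every WT library, so the omission takes out the value that went the other way. This test takes no account of litters, and 3 of the 4 WT LSK libraries came from 1 litter. Kat6aE/E replicate 1 of the same litter had 1.15 to 1.43 times the Hoxb3 level of those 3 WT libraries. Stage and tissue differ together between these sets and cannot be told apart.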

How the data were processed

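RNA of 24 whole E9.5 embryos and 16 LSK cell samples was sequenced as read pairs with a library kit that does not mark strand. The authors aligned the reads to mm39 with Rsubread and deposited the raw counts of read pairs per RefSeq gene from featureCounts; tool versions are not given in the sources used here. The tables hold no normalised values, and the CPM values were computed here. Of 26411 genes, 26359 matched the gene tables by identifier.

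Embryo and LSK libraries were fitted separately, after the model of the study. Protein-coding genes outside the Y chromosome that passed filterByExpr were scaled by TMM, 4 surrogate variables were estimated with wsva, and voomLmFit (edgeR 4.0.16) with a random effect for the litter and robust moderation of variances (limma 3.58.1, R 4.3.3) gave log2 fold changes, with genes called at a Benjamini-Hochberg FDR under 0.05. The estimated correlation within litters was 0.107 in embryos and 0.331 in LSK cells. Alternatives were edgeR's quasi-likelihood test, DESeq2 1.42.0, other numbers of surrogate variables, scalings, filters and blocks, and each library left out in turn. Scripts were tested on simulated data. Intervals are 95% confidence intervals of the fit, and library depth limits the precision of low genes such as Hoxd1. P-values measure the spread between libraries, which came from separate embryos or sorted samples.

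All 7 members were reported; a fold change is given singly where its unadjusted p or FDR was under 0.05, and otherwise mostly as an interval or range. Listed genes are named where called, and the 3 genes most like each member by Pearson r of log2 CPM are named as a description, except that some items are not reported here. The members, lists and tests were chosen with earlier results of these data known, so they are not independent of them. No library pair within a group agreed within counting noise. Replicate numbers were not treated as pairs in the reported fit. Null LSK samples were not analysed here.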

Additional observations from a re-analysis of the deposited data

Results flagged for a closer look

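In 58 groups of 4 libraries examined for a single library far from the other 3, 2 values stood out, where chance alone gives about 1 in 20 groups. Hoxa2 in LSK cells of Kat6aE/E replicate 2 was at 0 CPM, while the other 3 Kat6aE/E libraries had 0.993 to 1.11 CPM. Hoxb2 in LSK cells of double point mutant replicate 1 was at 0.917 CPM, while the other 3 libraries of that group were at 0. Kat6aE/E replicate 2 and double point mutant replicates 2, 3 and 4 are the 4 LSK libraries with 12600 to 13683 genes detected; the part of this in the zeros was not tested.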

How the results depend on the processing

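Of the fold changes of the members, 14 of 56 in embryos and 6 of 12 in LSK cells changed sign under at least 1 alternative. Among those with an unadjusted p under 0.05 or called under any alternative, this was 1, Hoxb3 in double point mutant LSK cells, which was 0.39, -0.24 with 0 surrogate variables and -1.59 to 0.66 with 1 library left out (-1.59 without double point mutant replicate 1). Of 7 members, the number called in Kat6a-/- against WT was 3 in the reported fit, 1 with 0 or 2 surrogate variables, 5 with 6, and 0 to 3 with 1 library left out (0 without WT replicate 3). In Kat6aE/E against WT it was 0, 3 with 6 surrogate variables and 0 to 1 with 1 library left out. In the double point mutant against WT it was 1, 0 with 0 surrogate variables, 5 with 6, 2 with DESeq2 and 0 to 2 with 1 library left out. For Kat6aE/E against Kat6a-/- it was 1, 2 with 6 surrogate variables, DESeq2, no count filter, all gene types or the replicate block, and 0 to 2 with 1 library left out. In the double point mutant LSK cells it was 0, and 0 to 2 with 1 library left out. Of the 12 differences between embryo and LSK effects, 0 passed, and 0 to 1 did with 1 library left out. The cause of these shifts was not tested.

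With the replicate number as a block, 2 members were called in Kat6a-/- against WT (Hoxd1 was not, FDR = 0.0574) and 1 in the double point mutant. Libraries of the same number deviated together only slightly more than others. Their median r was 0.048 in embryos and 0.0038 in LSK cells, against -0.018 and -0.025 for libraries of different numbers. In embryos 10 of 24 and in LSK cells 6 of 16 libraries correlated best with their own number, more than an even spread over the numbers gives. Over all genes, the count called in Kat6a-/- against WT was 375 in the reported fit, 111 with 0, 159 with 2 and 631 with 6 surrogate variables, and 285 with the replicate block; in the double point mutant it was 413, 0, 428, 811 and 434. In Kat6aE/E embryos it was 39, 122 with 6 surrogate variables and 74 without Kat6aE/E replicate 1. In Kat6aE/E LSK cells it was 178, and 3 with the replicate block. In Kat6b-/- embryos the counts were 72, 0 with 0, 29 with 2 and 169 with 6 surrogate variables, 141 with the replicate block and 154 with DESeq2. The fit without the 4 LSK libraries with few genes detected was chosen after seeing the data. Low counts of Hoxb2 limit what LSK cells can show.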
